A study of Mus musculus with 6 samples.

Results

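The genes described here are 10 chaperones and folding factors of the endoplasmic reticulum (ER) that were chosen by name: Hspa5, Hsp90b1, Dnajb9, Sdf2l1, Calr, Canx, Edem1, Pdia4, Pdia6 and Creld2. All 10 were found by symbol among the 38293 genes with RNA-seq values, and all 10 passed the filter on low values that was used for testing. Their RNA was compared in 6 lymphomas from mice that carried the Eμ-Myc transgene, in which the immunoglobulin heavy chain enhancer drives Myc in the B lineage, on the C57BL6 strain. Of these tumors, 4 came from miR-146a+/+ mice and 2 from miR-146a-/- mice, which lack a microRNA that restrains inflammatory signalling. The miR-146a+/+ tumors 1 and 2 were taken from a neck node of mice labelled male aged 18 and 16 weeks, and the miR-146a+/+ tumors 3 and 4 from the thymus of mice labelled male aged 10 weeks. The miR-146a-/- tumors 1 and 2 were thymic tumors of mice labelled female, aged 11 and 10 weeks. Genotype and labelled sex therefore cannot be told apart, and tumor site could be compared only within the miR-146a+/+ group. Whole tumor suspensions were lysed, so fewer cells of a type and less RNA per cell cannot be told apart.

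Proteins that enter the ER fold with the help of Hsp70 and Hsp90 family chaperones, of lectins that hold newly glycosylated chains, and of enzymes that form and exchange disulfide bonds. When unfolded chains build up, the sensors ATF6, IRE1 and PERK start the unfolded protein response, and the factors ATF6 and XBP1 raise transcription of chaperone genes. In the B lineage this system serves immunoglobulin assembly: BiP, the product of Hspa5, was first known as the protein that binds free heavy chains.

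The deposited values were RPKM, read numbers divided by the length of the gene and by the mapped reads of the library, with the technical libraries of a tumor already combined. Absolute depth is not given, but the spacing of the lowest values placed the depth of the other 5 tumors at 1.10 to 2.72 times that of miR-146a+/+ tumor 1. Mir146, the gene for the deleted microRNA, was listed at 0 in all 6 tumors, so the files hold no check of the genotype. The library of miR-146a-/- tumor 1 stood apart, with Xist at 1240072 RPKM against 1585 to 2203 RPKM in the other 5 tumors. Its RPKM sum without Xist, 692853, was within the range of 673931 to 787151 for the other tumors. The library of miR-146a-/- tumor 2 went against its label, since the Y-linked gene Ddx3y was at 24.6 RPKM there, against 0.130 RPKM in miR-146a-/- tumor 1 and 17.9 to 23.0 RPKM in the tumors labelled male. Xist in miR-146a-/- tumor 2, at 1819 RPKM, was also within the range of the tumors labelled male, 1585 to 2203 RPKM. The genotype fold changes of the 10 genes, of the immunoglobulin and plasma cell genes and of the named stress response regulators are therefore also given with each miR-146a-/- tumor left out.

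The promoters of the 10 genes were read from RefSeq (GRCm38.p6) for the ER stress response element, the site at which ATF6 and XBP1 act together with the CCAAT-binding factor NF-Y. The element was searched as CCAAT, any 9 bases and CCACG, on both strands, in windows from 250 bases before to 50 bases from each RefSeq start site. A full match was present in 6 of the 10 windows, those of Hspa5, Hsp90b1, Calr, Canx, Pdia6 and Creld2, against 39 of all 32851 windows, or 0.119%. The 39 include these 6. Chaperone genes are named above as targets of ATF6 and XBP1, so matches here were likely beforehand. The shares are a description and were not tested. With 1 mismatch allowed in CCACG, the window of Pdia4 was added, giving 7 of 10, against 0.998% of all windows. The windows of Dnajb9, Sdf2l1 and Edem1 held neither form at this spacing, although every one of the 10 held at least 1 CCAAT (37.4% of all windows) and at least 1 CCACG (32.8%); these shorter words lie inside the element and overlap with it by construction. A match in letters is a description and not a binding site. The matched sites are shown because they are the sequence feature that most of these genes share, with the CCAAT and CCACG words in capitals and the 9 bases between them in lower case. In the Pdia4 site the base that departs from CCACG is in lower case as well.
Hspa5: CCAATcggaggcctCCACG
Hsp90b1, nearer site: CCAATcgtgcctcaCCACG
Hsp90b1, farther site: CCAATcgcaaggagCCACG
Calr: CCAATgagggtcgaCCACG
Canx: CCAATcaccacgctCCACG
Pdia6: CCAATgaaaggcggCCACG
Creld2: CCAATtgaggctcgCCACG
Pdia4, 1 mismatch: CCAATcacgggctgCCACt

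The bases between the words differed from gene to gene. In GRCm38.p6 coordinates the Hspa5 site was at chr2:34772025-34772043 on the plus strand, inside an annotated exon of a longer Hspa5 transcript and 65 to 47 bases before the RefSeq start; the positions before a start are written as negative numbers in the map of elements. The Hsp90b1 sites were at chr10:86705533-86705551 (plus strand) and chr10:86705638-86705656 (minus strand), and Hsp90b1 was the only member with 2 full matches. The other full matches were at chr8:84847075-84847093 for Calr (plus), chr11:50325800-50325818 for Canx (minus), chr12:17266491-17266509 for Pdia6 (plus) and chr15:88819520-88819538 for Creld2 (minus). The near match of Pdia4 was at chr6:47813602-47813620 on the plus strand. Hsp90b1 also held a near match, not printed above, at chr10:86705598-86705616 on the plus strand, between its 2 full matches. Apart from the Hspa5 site, none of these stretches overlapped an annotated gene. The element ran on the strand of the gene in Hspa5, Canx, Pdia6 and the farther Hsp90b1 site. It ran on the opposite strand in Calr, Creld2, the nearer Hsp90b1 site and the near matches of Pdia4 and Hsp90b1.

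**Figure D1:**
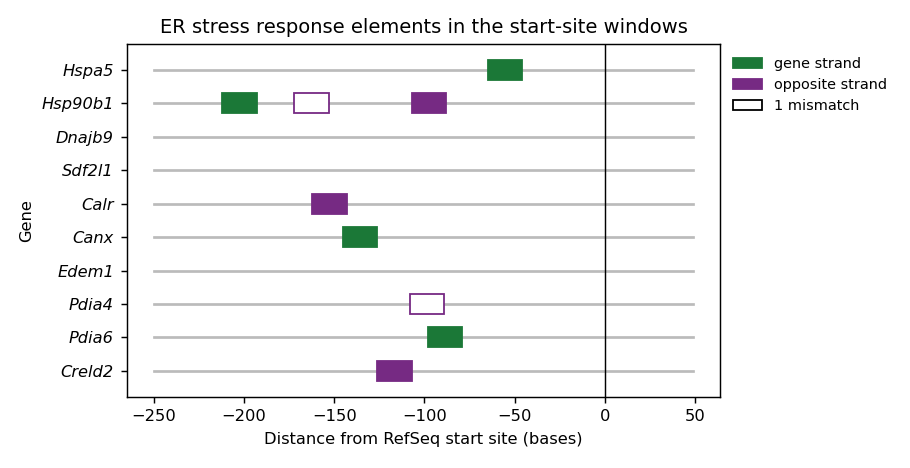
Position of the ER stress response element in the promoter window of each of the 10 genes, with distance from the RefSeq start site in bases on the x axis and one line per gene. Filled boxes are full matches on the strand of the gene (green) or on the opposite strand (purple), and open boxes have 1 mismatch in CCACG; the full matches lie between -212 and -47 bases, and Dnajb9, Sdf2l1 and Edem1 have none.

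The 10 genes covered a wide range of RNA levels in these tumors. Calr, Hsp90b1, Canx and Hspa5, which encode the abundant general chaperones, had means over the 6 tumors of 158 ± 32.7, 142 ± 24.2, 131 ± 14.9 and 104 ± 15.9 RPKM (SD, n = 6). The disulfide isomerases Pdia6 and Pdia4 followed at 70.2 ± 16.4 and 66.2 ± 18.1 RPKM, and Sdf2l1 at 45.9 ± 13.8 RPKM. Creld2, Edem1 and Dnajb9 were lowest, at 24.9 ± 5.04, 13.6 ± 2.52 and 12.6 ± 3.94 RPKM. RPKM is per length, so these levels are set beside each other on the premise that the gene lengths used were right, which was not checked. In this order the upper gene of a neighbouring pair was higher in 6 of 6 tumors for Canx over Hspa5, Hspa5 over Pdia6, Pdia4 over Sdf2l1, Sdf2l1 over Creld2 and Creld2 over Edem1. Each of these 5 pairs had an exact paired permutation p of 0.0313 on the log2 ratio, two-sided, the smallest that 6 tumors allow, and 0.0563 after Benjamini-Hochberg adjustment over the 9 pairs. The order was set by the means of these same tumors, so these p-values are a description only, and none was under 0.05 after adjustment. The upper gene was higher in fewer tumors for Calr over Hsp90b1 (4 of 6 tumors), Hsp90b1 over Canx (4 of 6), Pdia6 over Pdia4 (3 of 6) and Edem1 over Dnajb9 (5 of 6). Among the tested genes, Calr stood in the top 3.76% by mean level and Dnajb9 in the top 37.2%.

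**Figure D2:**
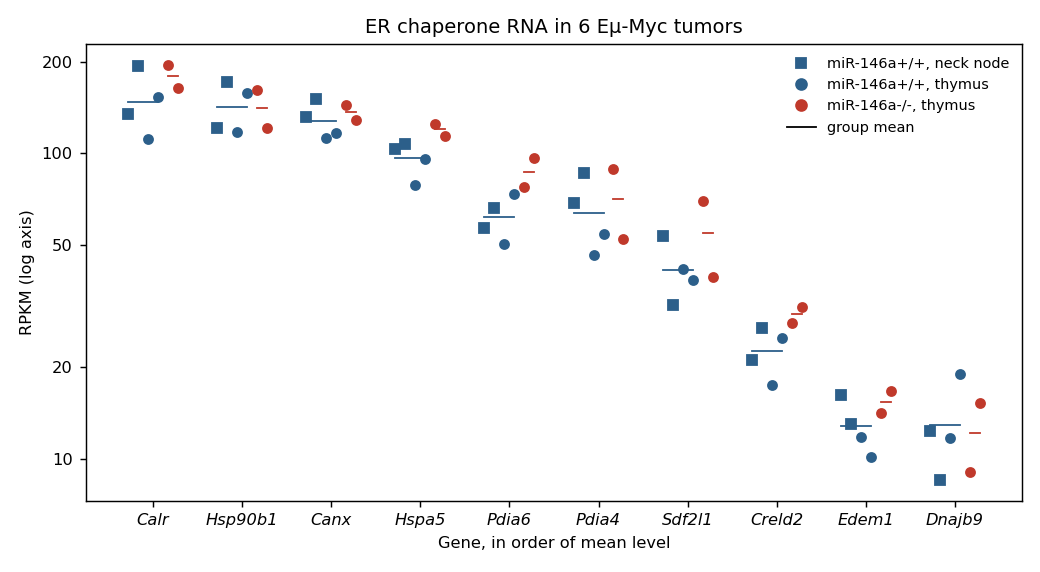
RPKM (log axis) of the 10 ER genes in order of mean level, with 1 symbol per tumor: blue squares for miR-146a+/+ neck node tumors, blue circles for miR-146a+/+ thymic tumors and red circles for miR-146a-/- thymic tumors. Short lines are group means; the red circles lie above every blue symbol for Hspa5, Pdia6 and Creld2, and within the blue range in at least 1 tumor for the other 7 genes.

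The first comparison asked whether these RNAs differed between miR-146a-/- and miR-146a+/+ tumors. By limma across 12751 genes, 0 of the 10 members passed an adjusted p of 0.05, and 0 had an unadjusted p under 0.05. Over all genes, 8 genes (0.0627%) passed the adjusted threshold and 3.62% had an unadjusted p under 0.05. Every fold change below is a log2 difference of RPKM + 1, miR-146a-/- minus miR-146a+/+, with its standard error. The 10 values had a median of 0.28, and 8 of 10 were positive, beside a median of 0.13 and 67.6% positive over all tested genes. After scaling the tumors by the median ratio of their genes, which brings the median over all genes to -0.01, the median of the 10 was 0.11 and 6 were positive. The miR-146a-/- tumors then stood apart from each other. With each gene centred on its own mean, the 10 averaged 0.18 in miR-146a-/- tumor 1 and -0.11 in miR-146a-/- tumor 2. These were the highest and the lowest of the 6 tumors. In 3 of the 10, Hspa5, Pdia6 and Creld2, both miR-146a-/- tumors were above all 4 miR-146a+/+ tumors; this held for 9.15% of all tested genes. The opposite pattern was seen in 0 of the 10 and in 2.09% of all genes. After median-ratio scaling, Pdia6 and Creld2 were still separated (2 of 10, against 4.89% of all genes) and Hspa5 was not.

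Hspa5, the Hsp70 chaperone BiP of the ER lumen (chromosome 2, 34771970 to 34777547, plus strand, GRCm38), was at 103, 108, 78.8 and 96.0 RPKM in miR-146a+/+ tumors 1 to 4 and at 125 and 114 RPKM in miR-146a-/- tumors 1 and 2. Both miR-146a-/- tumors were above all others, by a margin smaller than the range within the miR-146a+/+ group. The fold change was 0.32 ± 0.21 (adjusted p = 0.893, limma), and 0.25 or 0.38 without miR-146a-/- tumor 1 or 2. For a single gene, the exact two-sided permutation test over the 15 ways of splitting the tumors cannot go below p = 0.133, the value it gave for Hspa5, Pdia6 and Creld2.

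Hsp90b1, the ER form of Hsp90 known as GRP94 (chromosome 10, 86690209 to 86705509, minus strand), was at 121, 172, 118 and 158 RPKM in the miR-146a+/+ tumors and at 161 and 121 RPKM in the miR-146a-/- tumors. The groups overlapped over nearly their whole ranges. Its fold change was -0.01 ± 0.25 (adjusted p = 0.998, limma), and its sign depended on which miR-146a-/- tumor was used: -0.21 without tumor 1 and 0.20 without tumor 2.

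Dnajb9, a J-domain cochaperone of BiP also called ERdj4 (chromosome 12, 44205559 to 44210326, minus strand), was at 12.3, 8.51, 11.7 and 19.0 RPKM against 9.04 and 15.2 RPKM. Its highest tumor was miR-146a+/+ tumor 4 and its lowest miR-146a+/+ tumor 2, a 2.23-fold range that was the widest of the 10 genes. The fold change was -0.07 ± 0.33 (adjusted p = 0.974, limma), 0.27 without miR-146a-/- tumor 1 and -0.41 without tumor 2.

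Sdf2l1, a partner of the BiP and J-protein cycle (chromosome 16, 17130138 to 17132383, minus strand), was at 53.7, 31.9, 41.7 and 38.5 RPKM against 70.0 and 39.4 RPKM. Only miR-146a-/- tumor 1 was above the miR-146a+/+ range. The fold change of 0.36 ± 0.29 (adjusted p = 0.893, limma) went to -0.05 without that tumor and to 0.76 without miR-146a-/- tumor 2.

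Among the lectin chaperones, Calr encodes calreticulin, the soluble one, and lies on chromosome 8 (84841850 to 84846934, minus strand). It was at 135, 193, 112 and 153 RPKM in the miR-146a+/+ tumors and at 195 and 163 RPKM in the miR-146a-/- tumors. Its highest miR-146a+/+ value, in tumor 2, was close to that of miR-146a-/- tumor 1, so the groups overlapped. The fold change was 0.30 ± 0.26 (adjusted p = 0.893, limma), and 0.17 or 0.43 without miR-146a-/- tumor 1 or 2.

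Canx encodes calnexin, the membrane-bound lectin (chromosome 11, 50293961 to 50325673, minus strand). Its values were 132, 151, 113 and 117 RPKM against 144 and 129 RPKM, and both miR-146a-/- tumors fell inside the miR-146a+/+ range. It was the steadiest of the 10, with a 1.34-fold range over the 6 tumors and a fold change of 0.10 ± 0.21 (adjusted p = 0.933, limma). That value was 0.02 without miR-146a-/- tumor 1, 0.18 without tumor 2 and -0.07 after median-ratio scaling.

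Edem1, which acts on misfolded glycoproteins on their way to degradation (chromosome 6, 108828641 to 108859356, plus strand), was at 16.1, 12.9, 11.8 and 10.2 RPKM against 14.1 and 16.7 RPKM. Only miR-146a+/+ tumor 1 reached the miR-146a-/- values. The fold change was 0.27 ± 0.24 (adjusted p = 0.893, limma), and 0.38 or 0.15 without miR-146a-/- tumor 1 or 2.

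Of the disulfide enzymes, Pdia4 (chromosome 6, 47796141 to 47813430, minus strand) was at 69.0, 86.1, 46.3 and 54.5 RPKM against 88.7 and 52.6 RPKM. The miR-146a-/- tumors stood at opposite ends, with tumor 1 the highest of all and tumor 2 the second lowest. The fold change of 0.13 ± 0.31 (adjusted p = 0.938, limma) was -0.24 without tumor 1, 0.50 without tumor 2 and -0.04 after median-ratio scaling.

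Pdia6, an isomerase that also binds BiP clients (chromosome 12, 17266545 to 17284770, plus strand), had the largest fold change of the 10. Its values were 56.8, 66.1, 50.4 and 73.7 RPKM in the miR-146a+/+ tumors and 77.5 and 96.6 RPKM in the miR-146a-/- tumors, with means of 61.7 ± 10.2 RPKM (SD, n = 4) and 87.1 ± 13.5 RPKM (SD, n = 2). The lowest miR-146a-/- value lay just above the highest miR-146a+/+ value. The fold change was 0.50 ± 0.22, which gave 0.0568 unadjusted and 0.893 adjusted in limma, and it stayed positive without miR-146a-/- tumor 1 (0.65) or tumor 2 (0.34) and after median-ratio scaling (0.32).

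Creld2, an ER-stress-inducible partner of disulfide isomerases (chromosome 15, 88819646 to 88826683, plus strand), was at 21.1, 26.9, 17.4 and 24.8 RPKM against 27.9 and 31.5 RPKM. The groups did not overlap, but miR-146a+/+ tumor 2 and miR-146a-/- tumor 1 were separated by less than the spread in either group. The fold change was 0.40 ± 0.23 (adjusted p = 0.893, limma), 0.48 without miR-146a-/- tumor 1, 0.31 without tumor 2 and 0.23 after median-ratio scaling.

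**Figure D3:**
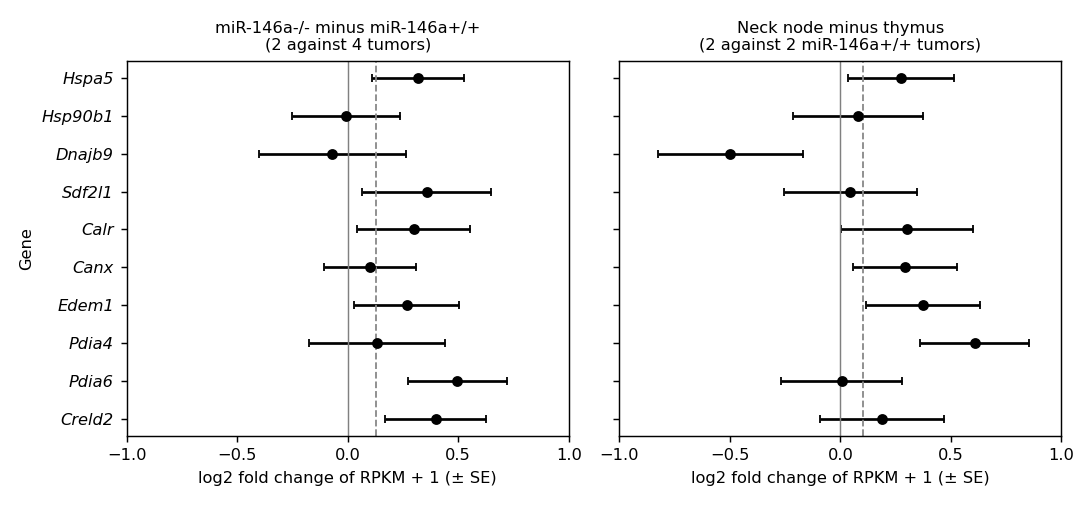
Log2 fold change of RPKM + 1 with its standard error (x axis) for each of the 10 ER genes (y axis), for miR-146a-/- against miR-146a+/+ tumors (left, 2 against 4) and for neck node against thymic miR-146a+/+ tumors (right, 2 against 2). The dashed line is the median of all tested genes (0.13 left, 0.10 right); Pdia6 is the highest on the left at 0.50 and Pdia4 the highest on the right at 0.61, and none of the 20 values passed an adjusted p of 0.05 in limma.

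Simulation showed what a comparison of 2 with 4 tumors could call. Values were simulated for the same 12751 genes, with 200 of them raised and noise drawn independently for each gene. There limma recovered 13.4% of genes changed 2-fold and 70.2% of genes changed 4-fold, with a mean of 4.15 false calls. Recovery in the real tumors can differ, since the number of changed genes there is not known. The observed values of these 10 genes were all under 2-fold. A failure to pass the threshold therefore does not show that the RNAs were alike.

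Tumor site was compared within the miR-146a+/+ group, neck node minus thymus, in 4 tumors. Site and age cannot be told apart there, since the mice with neck node tumors were 18 and 16 weeks old and those with thymic tumors 10 weeks. By limma across 12255 genes, 0 of the 10 passed an adjusted p of 0.05, against 19 of all genes (0.155%). Pdia4 alone had an unadjusted p under 0.05 (7.87% of all genes did): it was at 69.0 and 86.1 RPKM in the neck node tumors and at 46.3 and 54.5 RPKM in the thymic tumors, a fold change of 0.61 ± 0.25 (adjusted p = 0.628, limma). In Hspa5, Canx, Edem1 and Pdia4 both neck node tumors were above both thymic tumors (4 of 10, against 27.9% of all genes), and 0 of 10 showed the reverse without overlap (12.6% of all genes). The fold changes of Hspa5, Canx and Edem1 were 0.28, 0.29 and 0.37. Dnajb9 was the only one of the 10 with a negative value, -0.50 ± 0.33 (adjusted p = 0.702, limma), from 12.3 and 8.51 RPKM in the neck node against 11.7 and 19.0 RPKM in the thymus. The median of the 10 was 0.23, beside 0.10 for all genes, and 0.09 beside -0.01 after median-ratio scaling. The neck node tumors also held more neutrophil RNA, with 5 of 8 neutrophil markers past the adjusted threshold in limma and the 8 summing to 1589 and 1617 RPKM against 200 and 232 RPKM in the thymic tumors, and salivary gland RNA, with 3 of 4 tested genes past that threshold and the 6 listed genes summing to 67.5 and 68.8 RPKM against 2.60 and 4.31 RPKM and Prol1 at 0 throughout. The part of these cells in the values of the 10 genes was not tested.

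Since both miR-146a-/- tumors were thymic, the genotypes were compared again among the 4 thymic tumors. The median of the 10 fold changes was 0.44, beside 0.19 for all genes, and 0 of 10 passed the adjusted threshold, with adjusted p values from 0.662 to 0.970 in limma. In 6 of the 10, Hspa5, Calr, Canx, Edem1, Pdia6 and Creld2, both miR-146a-/- tumors were above both miR-146a+/+ tumors, and so were 32.5% of all genes tested there. After median-ratio scaling this was so in 3 of the 10, Hspa5, Pdia6 and Creld2, against 18.5% of all genes, and the reverse without overlap was seen in 1 of the 10, Dnajb9, against 20.4% of all genes. The miR-146a+/+ tumor 3 had the lowest value of the 6 tumors in 7 of the 10 genes, but also in 39.7% of all tested genes. Its median-ratio factor was 0.822, and after scaling it was lowest in 0 of the 10.

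The members did not move as 1 block from tumor to tumor. The miR-146a-/- tumor 1 was the highest of the 6 in Hspa5, Sdf2l1, Calr and Pdia4 (4 of 10, against 9.34% of all tested genes), and miR-146a-/- tumor 2 was the highest in Edem1, Pdia6 and Creld2 (3 of 10, against 35.6%). After median-ratio scaling these counts were 5 and 1. The same tumors were then the lowest of the 6 in 0 and 3 of the 10, and miR-146a+/+ tumor 1 was also the lowest in 3. As a description over 6 tumors, the correlation of each gene with the mean of the other 9, on log2(RPKM + 1), was 0.98 for Hspa5, 0.85 for Calr and 0.83 for Creld2. It was 0.69 for Canx, 0.67 for Pdia6 and 0.53 for Pdia4, and lower for Hsp90b1 (0.40), Edem1 (0.31) and Sdf2l1 (0.15). Dnajb9 went the other way, at -0.40. The points share their library, so the overall scale of a tumor enters every gene. The SD over the 6 tumors on the log2 scale was from 0.16 in Canx to 0.41 in Dnajb9, with a median of 0.30 beside 0.31 over all tested genes.

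**Figure D4:**
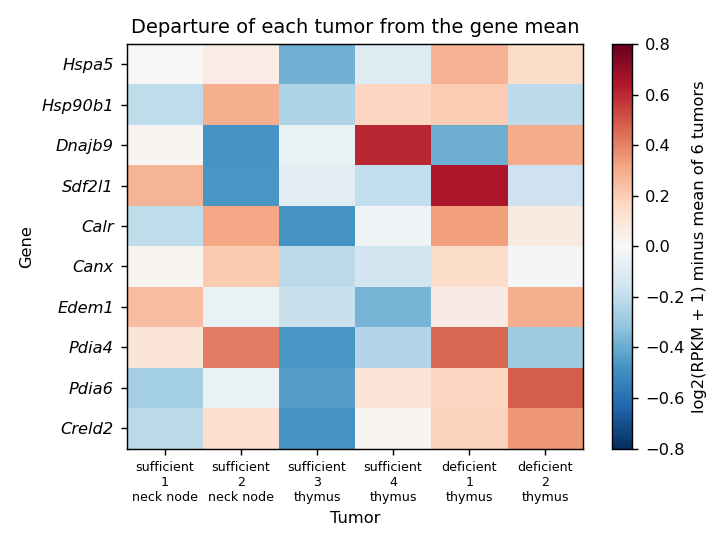
Log2(RPKM + 1) of each ER gene (rows) in each tumor (columns) minus the mean of that gene over the 6 tumors, with red above and blue below the mean; sufficient and deficient are miR-146a+/+ and miR-146a-/-. The column of sufficient tumor 3 is blue in all 10 rows, and the columns of the deficient tumors lie on opposite sides of the mean in Hsp90b1, Dnajb9, Sdf2l1, Pdia4 and, by a small margin, Canx.

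The genes whose profile over the 6 tumors was most like the mean of the 10 were named by Pearson correlation over 12741 other tested genes. The highest were Hdac7 (0.990), Nae1 (0.987), Fos (0.984), Fhod1 (0.982) and Scamp2 (0.981). With 6 tumors and this many genes, values of this size are a description only. Each of these genes was highest in miR-146a-/- tumor 1 and lowest in miR-146a+/+ tumor 3. Fos was low, at 0.113 to 1.87 RPKM, and Nae1 spanned only a 1.23-fold range. The likeness was taken without median-ratio scaling, so the overall scale of a tumor enters it, and no scaled likeness is given here. On the same measure, the stress response genes Ddit3, Atf6, Eif2ak3 and Ern1 were at 0.84, 0.82, 0.73 and 0.64 (ranks 423, 613, 1519 and 2621), and Atf4 and Xbp1 at 0.52 and 0.47 (ranks 4300 and 4871). Igkc was at 0.84 and Ighm at 0.80 (ranks 479 and 787). Xbp1 is also on the plasma cell list. The other plasma cell genes with a value here ranked lower, with Igj at 0.18, Irf4 at 0.15, Sdc1 at 0.13 and Mzb1 at -0.41. For the remaining genes of that list no likeness is given here.

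The chief client of these chaperones in B cells is immunoglobulin, and its abundant μ and κ constant genes, Ighm and Igkc, gave larger fold changes between the genotypes than any of the 10 genes. Ighm, the μ heavy chain constant gene, was at 1062, 1235, 910 and 1653 RPKM in the miR-146a+/+ tumors and at 2272 and 2632 RPKM in the miR-146a-/- tumors (1.04 ± 0.32, adjusted p = 0.893, limma). Igkc, the κ light chain constant gene, was at 1001, 1127, 851 and 1171 RPKM against 3523 and 2017 RPKM (1.37 ± 0.32, adjusted p = 0.818, limma). Neither passed the adjusted threshold, and in both genes the groups did not overlap. Without miR-146a-/- tumor 1 or 2 the values were 1.15 or 0.94 for Ighm and 0.97 or 1.77 for Igkc. The 8 tested immunoglobulin constant genes together had a median of 0.24 with 6 positive, and Iglc2, the lowest, was at -1.20. The summed RPKM of the 10 ER genes was 720, 856, 601 and 744 in the miR-146a+/+ tumors and 913 and 780 in the miR-146a-/- tumors, and those groups overlapped. As a ratio to the sum of Ighm and Igkc, the 10 genes stood at 0.349, 0.362, 0.341 and 0.263 in the miR-146a+/+ tumors and at 0.158 and 0.168 in the miR-146a-/- tumors. Markers of other cell types also gave fold changes, and 0 of the markers below passed the adjusted threshold for genotype in limma. Of 11 macrophage markers, 10 had positive values, with a median of 1.09 and summed RPKM of 152 to 319 against 280 to 382. Fibroblast markers were positive in 4 of 4 tested (median 0.59), with sums over the listed genes of 3.17 to 12.8 against 8.69 to 20.6 RPKM. Values were negative in 6 of 7 tested pro-B and pre-B cell markers (median -0.91), 8 of 8 neutrophil markers (median -1.46) and 3 of 3 tested erythroid markers (median -1.23). The pro-B and pre-B cell sums were 31.7 to 117 against 14.8 to 48.7 RPKM. The erythroid sums were 22.4 to 196 against 14.8 to 47.7 RPKM, so these sums overlapped between the genotypes. Among the thymic tumors alone the neutrophil median was -0.05. Neutrophil sums were 106 to 270 RPKM in miR-146a-/- tumors and 200 to 232 RPKM in thymic miR-146a+/+ tumors. In the neck node tumors they were 1589 and 1617 RPKM. The thymic medians were -1.38 for pro-B and pre-B cell, -1.46 for erythroid, 0.80 for macrophage and 0.43 for fibroblast markers. None of the 10 T and NK cell markers had a positive value, with sums of 25.6 to 86.6 against 19.7 to 21.2 RPKM. The B lineage markers summed to 1273 to 1811 against 1226 to 1800 RPKM. The part of the other cell types in the values of the 10 genes was not tested.

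Plasma cell genes gave values on both sides of 0. Mzb1, a B cell chaperone that acts with Hsp90b1, was at 350, 336, 471 and 375 RPKM in the miR-146a+/+ tumors and at 405 and 145 RPKM in the miR-146a-/- tumors (-0.64 ± 0.39, adjusted p = 0.893, limma). The sign of the Mzb1 value rested on miR-146a-/- tumor 2, since it was -1.38 without tumor 1 and 0.096 without tumor 2. Igj, the joining chain, had a fold change of -1.01 (-1.30 without tumor 1 and -0.71 without tumor 2). Irf4 was at -0.18 and the surface marker Sdc1 at 0.10, and both changed sign between the miR-146a-/- tumors: Irf4 was at -0.58 without tumor 1 and 0.22 without tumor 2, and Sdc1 at 0.64 and -0.44. Prdm1, the factor that commits B cells to secretion, was below the filter. Of the 8 tested genes of the list, 3 were positive, with a median of -0.18 (-0.35 after median-ratio scaling), and 0 passed the adjusted threshold in limma. The 10 plasma cell markers summed to 454 to 574 RPKM against 246 to 557 RPKM. Mzb1 made up most of that sum in every tumor, so the sum mainly reads that 1 gene.

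**Figure D5:**
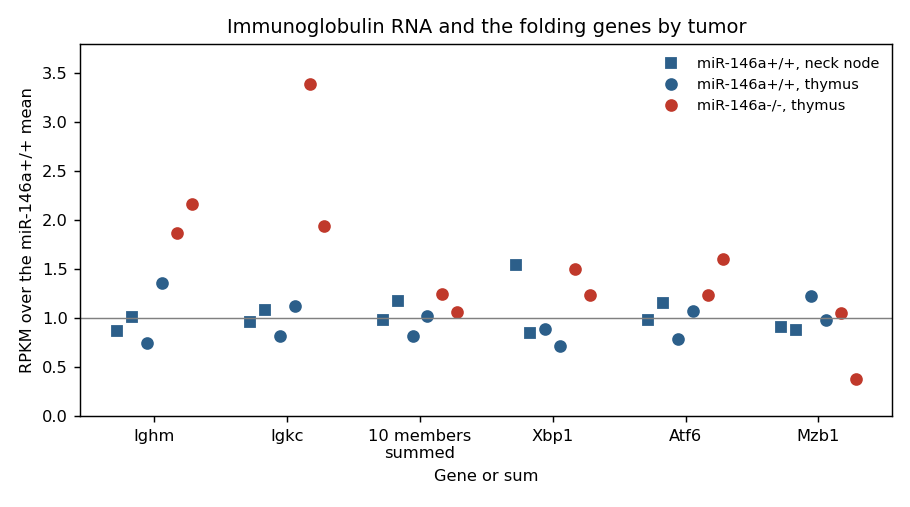
RPKM of Ighm, Igkc, the sum of the 10 ER genes, Xbp1, Atf6 and Mzb1 (x axis) in each tumor, divided by the mean of the miR-146a+/+ tumors (y axis, linear from 0); blue squares are miR-146a+/+ neck node tumors, blue circles miR-146a+/+ thymic tumors and red circles miR-146a-/- thymic tumors. The red circles are above all blue symbols for Ighm, Igkc and Atf6, and overlap them for the summed ER genes, Xbp1 and Mzb1.

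The regulators of the unfolded protein response gave 14 positive values among 15 tested of 17 listed, with a median of 0.21. Over all tested genes 67.6% were positive, with a median of 0.13. After median-ratio scaling 12 of the 15 were positive, with a median of 0.11, beside 48.0% of all genes. Of the 15, 0 passed the adjusted threshold or an unadjusted p under 0.05 in limma. Atf6, the membrane-bound factor that is cleaved under stress, was at 12.8, 15.01, 10.2 and 13.9 RPKM in the miR-146a+/+ tumors and at 16.1 and 20.9 RPKM in the miR-146a-/- tumors, without overlap (0.48 ± 0.23, adjusted p = 0.893, limma). Xbp1, whose RNA is spliced by IRE1 in a way that gene-level values do not show, was at 18.6, 10.2, 10.8 and 8.60 RPKM against 18.2 and 14.9 RPKM, with miR-146a+/+ tumor 1 the highest of all. Without miR-146a-/- tumor 1 or 2 the values were 0.66 or 0.30 for Atf6 and 0.34 or 0.61 for Xbp1. The fold changes over all tumors were 0.47 for Xbp1, 0.46 for Atf4, 0.32 for Ddit3, which encodes CHOP, 0.24 for Ern1, which encodes IRE1, and 0.26 for Eif2ak3, which encodes PERK. Without miR-146a-/- tumor 1 they were 0.73 for Atf4, 0.26 for Ddit3, 0.49 for Ern1 and 0.07 for Eif2ak3, and without tumor 2 they were 0.20, 0.37, -0.01 and 0.46 in the same order, so that the sign for Ern1 turned. The extremes of the list were Ppp1r15a at 0.65 and Creb3l2 at -0.25.

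The remaining genes of the ER folding pathway were described by 5 lists of 80 genes, of which 78 were tested. Of these 78, 63 had positive values, with a median of 0.22, beside 67.6% positive over all genes. After median-ratio scaling 49 of the 78 were positive, with a median of 0.05, beside 48.0% of all genes. Of the 78, 0 passed the adjusted threshold in limma; 2, both in the translocation list, had an unadjusted p under 0.05. In 15 of the 78 the miR-146a-/- tumors were above all others, against 9.15% of all genes, and in 1 below all others, against 2.09%. Among 13 other Hsp70 cochaperones and ER chaperones, 10 were positive with a median of 0.20, from Mzb1 at -0.64 to the collagen chaperone Serpinh1 at 0.38. Of 16 other disulfide enzymes, 13 were positive with a median of 0.17, from Prdx4 at -0.18 to Pdia5 at 1.05, the latter at 0.781 to 7.50 RPKM against 5.49 and 12.6 RPKM. All 7 tested genes of the glycan folding cycle were positive, with a median of 0.16, from Ganab, a glucosidase subunit, at 0.04 to Mogs, the first glucosidase of the cycle, at 0.42; after median-ratio scaling 3 of the 7 were positive, with a median of -0.0043 and Ganab at -0.13. The Ganab value was also negative without miR-146a-/- tumor 1 (-0.16).

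In ER-associated degradation, 15 of 20 genes were positive with a median of 0.23, and the lowest was Edem3, an Edem1 relative, at -0.32. In translocation and glycan transfer, 18 of 22 were positive with a median of 0.23, from the channel subunit Sec61b at -0.44 to Tram1 at 0.67. Chaperones outside the ER were taken as 2 further lists. Among 20 cytosolic chaperones 9 were positive, with a median of -0.07 (-0.24 after median-ratio scaling), from Hspa8 at -0.75 to Ahsa1 at 0.25. Among 9 mitochondrial chaperones 6 were positive, with a median of 0.06, but after median-ratio scaling 1 of 9 was positive and the median was -0.12. As deposited the values ran from Hspe1 at -0.47 to Clpx at 0.19. None of the genes of either list passed the adjusted threshold in limma.

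By promoter, the 6 members with a full ER stress response element had a median fold change of 0.31 and the 4 members without one of 0.20, a difference that was not tested. Outside the 10, 9 tested genes held the element in their windows, and 8 of these 9 had positive values with a median of 0.23. They include Dnajc3, a cochaperone of BiP, Ero1lb, an ER oxidase, and Derl3 and Syvn1 of the degradation machinery. Of all 15 tested genes with the element, 13 were positive, with a median of 0.30, and 0 passed the adjusted threshold in limma. Over all tested genes 67.6% were positive, with a median of 0.13. The counts by element were not taken after median-ratio scaling, which brings the positive share over all genes to 48.0%.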

How the data were processed

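RNA from single-cell suspensions of 6 Eμ-Myc tumors was sequenced as 100-base single reads, with 2 technical libraries per tumor. Per the labels and methods, the authors aligned reads with STAR 2.3.0 to GRCm38/mm10 with Ensembl 71 genes, counted them with HTSeq 0.5.4p3 and tested with DESeq, for which the labels and the methods name different versions. The deposited table held 1 RPKM value per gene and tumor, which the authors normalized for gene length and mapped reads; it held no counts, so limma replaced the count test of the study. The unit was taken from the labels and values, since the table header does not name it. Values were used as log2(RPKM + 1). Genes were kept where 2 or more tumors reached 0.5 RPKM, and were tested with limma 3.58.1 (R 4.3.3) with a mean-variance trend and Benjamini-Hochberg adjustment over all tested genes at 0.05. All 6 tumors entered the genotype comparison and the 4 miR-146a+/+ tumors the site comparison. Each tumor is a sample of its own in the labels; where no label states separate animals, p-values measure only the spread between these samples. The script was tested on simulated data of 12751 genes with 200 changed. Relative depth came from ratios of values under 0.05 RPKM. The RPKM of genes with near-identical copies can be split or lost in counting. Promoter windows were RefSeq's for GRCm38.p6, and gene coordinates GENCODE's for the same assembly. The members, lists and tests were chosen with earlier results of these data known. All members were named, as were the highest and lowest gene of each ER, stress response and chaperone list, fixed regulators and immunoglobulin or plasma cell genes, and the 5 genes most like the members' mean; 1 gene that this rule names is not reported here. Of 17 alternatives for genotype and 13 for site, the effects are given at the end. Python 3.11.15 with scipy 1.17.1 gave the exact permutation tests.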

Additional observations from a re-analysis of the deposited data

How the results depend on the processing

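The count of the 10 ER genes past the threshold was 0 under all 17 genotype and all 13 site alternatives. The median fold change of the 10 for genotype was 0.11 after median-ratio scaling and 0.44 in the 4 thymic tumors or with site in the model, 0.16 with the replicate block, and 0.20 to 0.33 leaving out 1 tumor; for site it was 0.09 to 0.32 leaving out 1 tumor. The 8 genes called for genotype over all genes became 1 with the replicate block, 3 in the 4 thymic tumors, 3 with site in the model and 4 to 9 leaving out 1 tumor (5 without either miR-146a-/- tumor, 4 without miR-146a+/+ tumor 3). The 19 called for site became 2 with all 6 tumors and genotype as a covariate, 11 with quantile normalization, 0 of 20597 with no filter (1388 with an unadjusted p under 0.05), and 11 to 67 leaving out 1 tumor. The cause was not tested.

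Of 170 single values for genotype 155 kept their sign, as did 119 of 130 for site, and no adjusted p was under 0.565 (genotype) or 0.438 (site) in limma. For genotype, the sign changed after median-ratio scaling in Canx (-0.074) and Pdia4 (-0.040), with the replicate block in Dnajb9 (0.18), Canx (-0.046) and Pdia4 (-0.17), and in thymic tumors or with the site covariate in Hsp90b1 (0.033). Leaving out 1 tumor, the values that crossed 0 spanned -0.21 to 0.20 in Hsp90b1, -0.41 to 0.27 in Dnajb9, -0.048 to 0.76 in Sdf2l1 and -0.24 to 0.50 in Pdia4. For site, it changed after median-ratio scaling in Hsp90b1 (-0.063), Sdf2l1 (-0.095) and Pdia6 (-0.13), and after quantile normalization in Pdia6 (-0.0255). Leaving out 1 tumor, site values spanned -0.17 to 0.33 in Hsp90b1, -0.32 to 0.41 in Sdf2l1, -0.26 to 0.28 in Pdia6 and -0.056 to 0.43 in Creld2.

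The replicate numbers 1 and 2 are shared by the groups, but no label says that they pair tumors, and the difference between these numbers correlated at 0.149 across 12751 genes. With 2 miR-146a-/- tumors, differences under 2-fold are mostly out of reach, and absolute depth is not known.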
